A study of Mus musculus with 12 samples.

Results

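The genes described here are 31 genes of cholesterol and fatty acid synthesis, found in the count tables of 25230 genes. They were chosen by name, with earlier results of these data known. They were followed in kidney mouse mesangial cells (MMC), the contractile cells that hold the capillaries of the glomerulus together. Primary MMC had been cultured from pooled glomeruli of wild-type (WT) mice and of mice of the lncMGC-KO5 line, called KO, in which Cas9 had removed a short stretch at the start of lncMGC, the long non-coding RNA that hosts the miR-379 cluster. Cells of each genotype were untreated serum-depleted controls (SD) or were given TGF-β at 10 ng/ml for 24 h. This makes 4 groups of 3 RNA-seq libraries, named WT-SD and WT-TGF for the WT cells and KO-SD and KO-TGF for the edited ones. Whether the cells given TGF-β were also serum-depleted is not stated in the sources used here. The number of mice and the animals' age are not given in the sources used here, all KO libraries came from 1 edited line, and genotype and culture cannot be told apart. The libraries of a group are described as independent samples, and whether they came from separate cultures or animals is not given in the sources used here, so p-values measure the spread between these libraries, which may be technical.

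Cholesterol is built from acetyl-CoA through mevalonate, farnesyl diphosphate and squalene, and the last steps turn lanosterol into cholesterol. Fatty acids are built from the same acetyl-CoA by carboxylation and repeated condensation, and are then lengthened and desaturated. Both pathways are known to be switched by the sterol regulatory element-binding proteins (SREBPs), membrane-bound transcription factors which INSIG proteins hold in the endoplasmic reticulum while sterols are plentiful and which are cut free when sterols run low. SREBP-2, the product of Srebf2, mainly drives sterol genes, and the SREBP-1 forms from Srebf1 mainly drive fatty acid genes. In the kidney, lipid held in glomerular cells is a known feature of diabetic kidney disease, and TGF-β is the best known fibrotic signal of that disease.

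The libraries had 19898050 to 22827706 counts on genes, and 3 counts, taken as the floor of detection, equaled 0.130 to 0.161 CPM (counts scaled to library size). The count tables hold no row for lncMGC, which leaves its deletion without a check in these counts. Mirg, an RNA annotated within the end of that transcript, had 47 to 59 counts in WT-SD and 72 to 89 in the libraries labelled KO-SD (log2 fold change 0.68, adjusted p = 6.51e-05 from edgeR on every gene counted), and in TGF the difference was 0.26 (adjusted p = 0.145). Mirg lies outside the removed stretch and so does not check the deletion, which the paper reports from Sanger sequencing. The paper also reports lower Mirg in KO cells by quantitative PCR, which these counts do not show. KO names the label throughout. The mesangial markers Pdgfrb, Acta2, Tagln, Myl9 and Cald1 stood above 90 CPM in every library, while desmin (Des) had 5.11 to 8.76 CPM in WT and 0.161 to 0.551 CPM in KO, Itga8 had 0.588 to 3.45 CPM and Gata3 3.30 to 10.9 CPM over all libraries. Of 8 adipocyte markers, which could bring lipid synthesis with them, Adipoq, Plin1, Cidec, Lep and Cfd had at most 1 count in any library and all 8 summed to 2.25 to 6.37 CPM.

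Because SREBPs are known to act at promoters beside the factors NF-Y and Sp1, the promoters of Hmgcs1, Cyp51, Srebf2 and Insig1 are shown here. These genes are the entry enzyme of the sterol branch, a lanosterol demethylase, the sterol regulator itself and its inhibitor. The sequences are from RefSeq on GRCm38.p6, 250 bases before to 50 after the gene's start, written 5′ to 3′ on the gene's strand. Capitals mark exact matches on either strand to the sterol regulatory element TCACNCCAC or to the NF-Y box CCAAT, a match on the other strand being shown as its reverse complement, and the matches nowhere overlap in these windows.
Hmgcs1, chr13:119690101-119690400, plus strand: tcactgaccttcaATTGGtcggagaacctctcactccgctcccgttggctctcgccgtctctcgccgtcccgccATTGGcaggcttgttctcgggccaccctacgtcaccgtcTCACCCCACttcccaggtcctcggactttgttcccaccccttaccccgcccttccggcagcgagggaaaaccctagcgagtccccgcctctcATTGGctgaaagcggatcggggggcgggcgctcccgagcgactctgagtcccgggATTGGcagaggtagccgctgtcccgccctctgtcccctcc
Cyp51, chr5:4104648-4104947, minus strand: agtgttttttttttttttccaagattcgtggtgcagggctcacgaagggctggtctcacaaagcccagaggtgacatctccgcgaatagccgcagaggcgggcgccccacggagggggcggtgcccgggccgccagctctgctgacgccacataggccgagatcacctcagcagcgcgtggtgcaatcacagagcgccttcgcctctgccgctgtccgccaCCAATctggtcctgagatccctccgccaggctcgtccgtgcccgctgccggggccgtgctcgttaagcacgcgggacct
Srebf2, chr15:82147019-82147318, plus strand: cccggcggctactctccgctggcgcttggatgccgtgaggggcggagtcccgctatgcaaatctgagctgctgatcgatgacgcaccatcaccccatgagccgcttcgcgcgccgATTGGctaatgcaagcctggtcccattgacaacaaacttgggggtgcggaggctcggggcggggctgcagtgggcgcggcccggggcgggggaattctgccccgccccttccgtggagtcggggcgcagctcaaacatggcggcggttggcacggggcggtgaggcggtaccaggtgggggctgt
Insig1, chr5:28071162-28071461, plus strand: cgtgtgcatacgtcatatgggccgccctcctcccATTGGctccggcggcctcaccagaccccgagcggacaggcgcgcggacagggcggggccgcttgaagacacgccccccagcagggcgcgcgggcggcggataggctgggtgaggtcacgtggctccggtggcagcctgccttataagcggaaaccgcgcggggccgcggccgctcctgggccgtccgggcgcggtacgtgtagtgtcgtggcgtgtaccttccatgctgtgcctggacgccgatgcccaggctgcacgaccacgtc

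Windows were found for 24 of the 31 genes, some with several starts, and not for Fdps, Fdft1, Sqle, Stard4, Scd1, Scd2 and Fads1. An NF-Y box stood in 20 of the 24, or 83.3%, against 41.1% of 27025 genes with a window and 43.2% of the 8983 of those that were tested for expression here. The GC box GGGCGG, a letter form of Sp1 sites, was also in 20 of the 24, or 83.3%, against 38.2% of all and 71.2% of the tested genes. The exact sterol regulatory element was found in 1 of the 24, Hmgcs1, where it begins 137 bases before the start, in 1.44% of all genes and in 1.38% of the tested genes. The E-box CACGTG stood in 4 of the 24 (16.7%), in 8.09% of all genes and in 12.2% of the tested genes. Mvk had 5 NF-Y boxes and Nsdhl and Hmgcs1 had 4 each, while the windows of Acaca and Elovl6 held none of the 4 motifs. The Acaca window (chr11:84195188-84195487) lies inside the gene (chr11:84129635-84401651, plus strand), so it does not cover the gene's first start. These are letter matches in short windows, with no test, and they say nothing of binding.

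Most of the 31 genes rose with TGF-β in WT, and in KO all that were tested did. The CPM of the 31 summed to 2397 to 2435 in the WT-SD libraries and 3689 to 3869 in WT-TGF, 1.57 times as much, and to 2806 to 2874 in KO-SD and 6104 to 6361 in KO-TGF, 2.19 times as much. No library of one group overlapped another group in this sum, and the KO-TGF libraries stood highest. By gene, 30 of the 31 passed the limit of 1 RPKM (reads per kilobase of exon, scaled to library size) in at least 1 library and were tested, and Idi1 did not pass. In WT, 27 of the 30 were higher in WT-TGF at FDR <5% (edgeR quasi-likelihood test), against 36.0% of the 11527 genes tested, and 0 were lower, against 36.4%, also 0 at an unadjusted p under 0.05 and by DESeq2. In KO, all 30 were higher, against 34.9% of genes tested, and 0 were lower, against 39.1%, again also 0 at an unadjusted p under 0.05 and by DESeq2. Without overlap between the libraries, 26 of the 30 stood higher and 0 lower in WT-TGF than in WT-SD, against 37.3% and 37.8% of genes tested, and in KO 30 stood higher and 0 lower, against 35.1% and 39.2%. A fold change above 1.5 was passed by 18 of the 30 in WT and by 27 in KO, against 9.46% and 9.90% of all genes. For the 30 the median log2 fold change was 0.69 in WT and 1.10 in KO, beside -0.00 and -0.03 over all genes tested. In a fit without the RPKM limit, 28 of 31 were higher in WT and 31 of 31 in KO, against 4802 and 4424 of the 18565 genes in that fit.

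**Figure D1:**
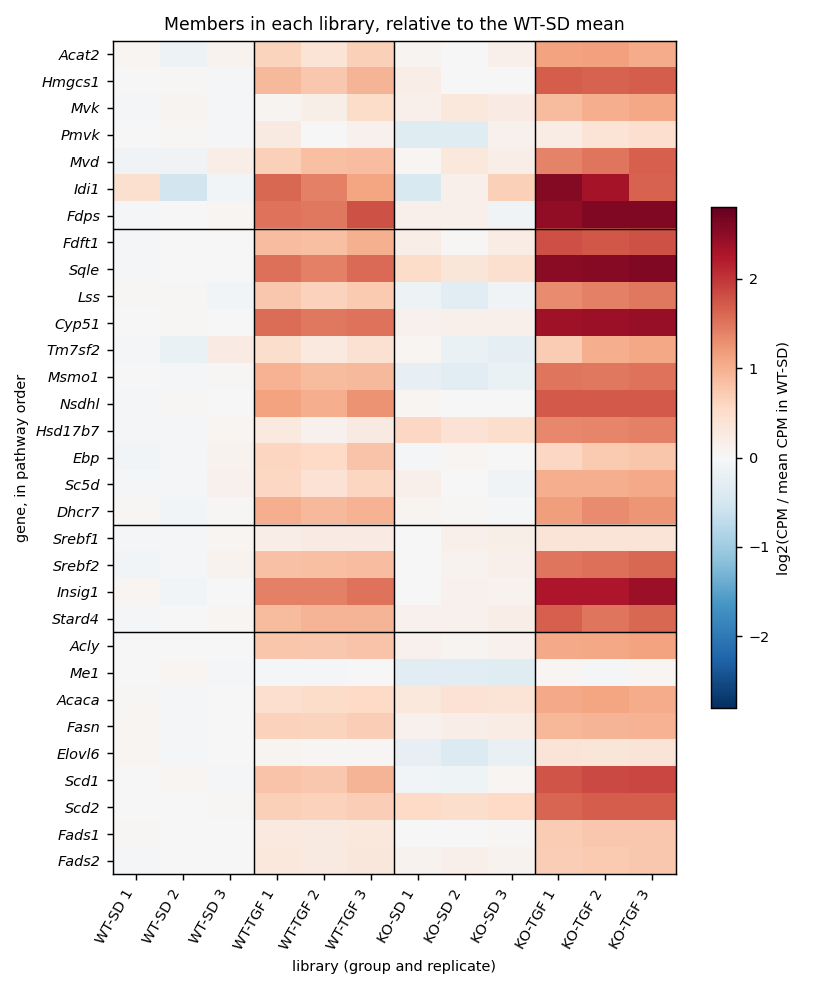
Heatmap of log2(CPM / mean CPM in WT-SD) for the 31 genes (rows, in pathway order, with lines between the 4 functional groups) in the 12 libraries (columns). The TGF columns are redder than the SD columns for most genes and the KO-TGF columns the more so, and the row of Idi1 rests on only 0.304 to 2.57 CPM.

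**Figure D2:**
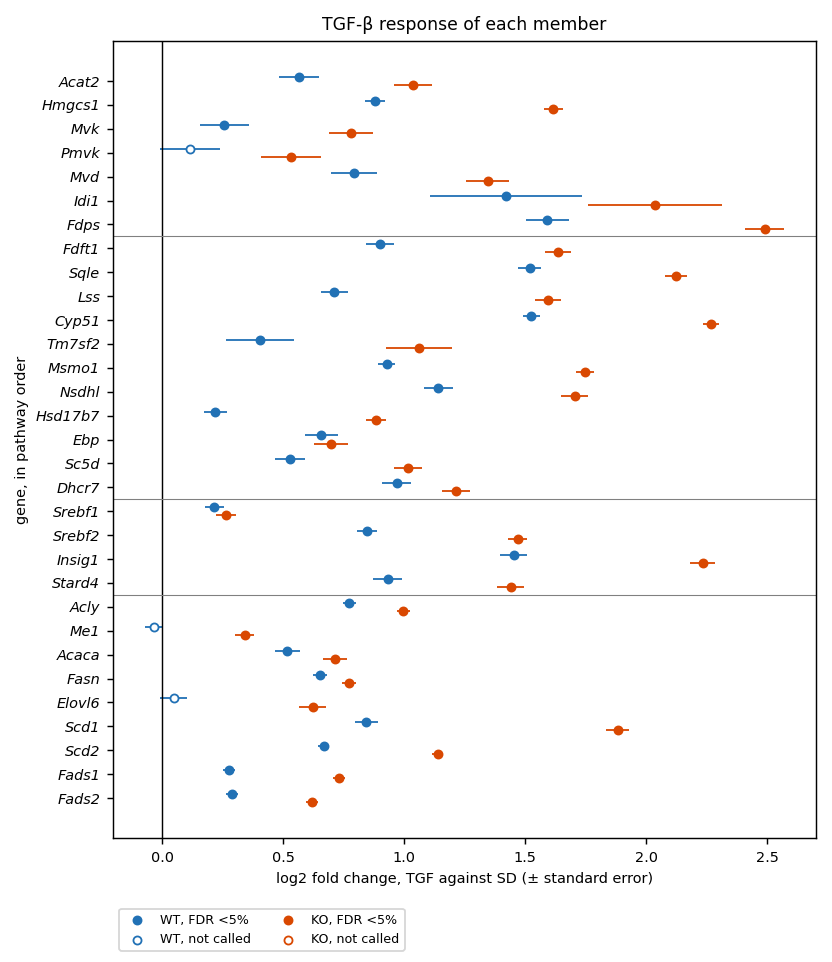
Log2 fold change with TGF-β (horizontal axis) of each of the 31 genes in WT (blue) and KO (orange), with standard errors from the edgeR fits. Filled points passed FDR <5%, open points did not, and the KO point lies to the right of the WT point for every gene, by the least for Ebp and Srebf1.

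The order of the genes was much alike in the 2 genotypes. Across the 30 genes tested, the WT and KO responses, which share no library, had a Pearson correlation of 0.925 and a Spearman correlation of 0.906, given as a description since the genes were counted in the same libraries. No such correlation over all genes is given here, so the shared order cannot be called particular to these genes. The largest responses in both genotypes belonged to Fdps, Cyp51, Sqle and Insig1, and the smallest to Me1, Pmvk, Srebf1 and, in WT, Elovl6. By functional group, the median log2 fold change in WT and KO was 0.68 and 1.19 for the mevalonate branch, 0.90 and 1.59 from squalene to cholesterol, 0.89 and 1.45 for control and transport, and 0.52 and 0.73 for fatty acid synthesis. The summed CPM of the 4 groups rose 1.80, 1.99, 1.67 and 1.47 times in WT and 2.94, 3.15, 2.38 and 1.98 times in KO. The difference between the groups of genes was not tested.

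In the mevalonate branch, 5 of 6 genes tested rose in WT and 6 of 6 in KO, against 36.0% and 34.9% of all genes tested. Hmgcs1, the synthase that makes HMG-CoA (chr13:119690351-119708260), had 110.1, 112 and 108 in WT-SD, 208, 187 and 212 in WT-TGF, 125, 111 and 111 in KO-SD and 358, 347 and 357 in KO-TGF CPM. The SD libraries of both genotypes lay together, the WT-TGF libraries lay clear above them and the KO-TGF libraries clear above those. Its log2 fold change was 0.88 ± 0.04 in WT and 1.61 ± 0.04 in KO (± standard error). Fdps, the farnesyl diphosphate synthase (chr3:89093588-89101967), had 5.68, 5.85 and 6.10 in WT-SD, 16.8, 16.4 and 20.1 in WT-TGF, 6.48, 6.47 and 5.46 in KO-SD and 32.7, 35.2 and 35.3 in KO-TGF CPM. No TGF library overlapped an SD library, and its log2 responses, 1.59 ± 0.09 in WT and 2.49 ± 0.08 in KO, were the largest of the 30 in each genotype. About 26.1% of its 51-base stretches also occur in transcripts of other genes, mostly of Gm43738, so its counts are uncertain.

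Acat2, which joins acetyl-CoA units into acetoacetyl-CoA, ran from 9.28 to 10.9 CPM in WT-SD and from 21.2 to 22.6 CPM in KO-TGF. Its log2 fold changes were 0.57 in WT and 1.04 in KO. It shares 38.9% of its 51-base stretches with its neighbor Acat3. Mvd, the diphosphate decarboxylase, rose by 0.79 in WT and 1.34 in KO. The kinases had smaller log2 fold changes. Mevalonate kinase (Mvk) had 8.09, 8.80 and 8.01 in WT-SD, 8.70, 9.27 and 11.9 in WT-TGF, 9.10, 10.2 and 9.68 in KO-SD and 15.4, 16.7 and 17.6 in KO-TGF CPM. The WT-SD and WT-TGF libraries of Mvk overlapped, and its WT response of 0.26 (edgeR adjusted p = 0.0235) missed the threshold without WT-SD replicate 1 (adjusted p = 0.0639) or 3 (0.0683), without WT-TGF replicate 3 (0.309) and by DESeq2 (0.0518), and was 0.098 with library size alone (0.38). In KO it rose by 0.78 with no overlap. Phosphomevalonate kinase (Pmvk) had a log2 fold change of 0.11 in WT, which did not pass, and rose by 0.53 in KO. Idi1, the isopentenyl diphosphate isomerase, had 0.591, 0.304 and 0.410 in WT-SD, 1.32, 1.16 and 0.939 in WT-TGF, 0.322, 0.483 and 0.688 in KO-SD and 2.57, 2.19 and 1.37 in KO-TGF CPM. In the fit of all genes with a count, its log2 fold changes were 1.42 ± 0.32 in WT and 2.04 ± 0.28 in KO, and both passed, at counts close to the floor in SD. Idi1 shares 25.2% of its 51-base stretches, mostly with Gm13502.

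From squalene to cholesterol, 11 of 11 genes rose in each genotype, against 36.0% of all genes tested in WT and 34.9% in KO. Sqle, the squalene epoxidase and a rate-limiting step of the branch (chr15:59315092-59331193), had 29.7, 30.3 and 30.6 in WT-SD, 88.1, 80.8 and 91.1 in WT-TGF, 43.0, 38.0 and 41.1 in KO-SD and 174, 176 and 183 in KO-TGF CPM. The 4 groups did not overlap for Sqle, and KO-SD already stood above WT-SD. Its log2 fold changes with TGF-β were 1.52 ± 0.05 in WT and 2.12 ± 0.04 in KO. Cyp51, the lanosterol demethylase (chr5:4080674-4104697), had 47.0, 48.5 and 47.1 in WT-SD, 141, 133 and 136 in WT-TGF, 52.0, 52.3 and 52.8 in KO-SD and 246, 251 and 259 in KO-TGF CPM. TGF-β thus set WT libraries 2.88 times and KO libraries 4.81 times above their SD level, with log2 fold changes of 1.52 ± 0.03 in WT and 2.26 ± 0.03 in KO.

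The other enzymes of this branch rose by log2 fold changes of 0.22 to 1.14 in WT and 0.70 to 1.75 in KO. Fdft1 joins farnesyl groups into squalene and rose by 0.90 in WT and 1.63 in KO, with 26.3% of its 51-base stretches shared, mostly with Ctsb. Lss closes the ring to lanosterol and rose by 0.71 in WT and 1.59 in KO. Msmo1 and Nsdhl, which with Hsd17b7 take off the methyl groups at carbon C-4, rose by 0.93 in WT and 1.75 in KO and by 1.14 in WT and 1.70 in KO. Sc5d and Dhcr7, a desaturase and a reductase of the last steps, rose by 0.53 in WT and 1.01 in KO and by 0.97 in WT and 1.21 in KO. Tm7sf2, a sterol reductase, had the lowest counts here, at most 7.41 CPM, and passed the RPKM limit in 1 of 3 WT-SD, 2 of 3 WT-TGF, 0 of 3 KO-SD and 3 of 3 KO-TGF libraries. Its log2 fold changes were 0.40 in WT and 1.06 in KO, and the call in WT was lost without WT-SD replicate 2 (edgeR adjusted p = 0.0722) or WT-TGF replicate 1 (0.0513), and with library size alone (0.24, adjusted p = 0.116).

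Hsd17b7 and Ebp departed from this pattern in opposite ways. Hsd17b7, the ketosteroid reductase of the C-4 complex, had 38.8, 38.9 and 41.1 in WT-SD, 48.2, 43.3 and 46.9 in WT-TGF, 59.1, 52.7 and 56.0 in KO-SD and 101, 103 and 105 in KO-TGF CPM. Each group stood apart from the others, with WT-TGF below KO-SD. Its response was 0.22 ± 0.05 in WT and 0.88 ± 0.04 in KO, and in WT it was 0.060 and did not pass when libraries were scaled by size alone (edgeR adjusted p = 0.241). Ebp, a sterol isomerase, had 16.2, 16.7 and 18.2 in WT-SD, 25.9, 25.2 and 29.6 in WT-TGF, 16.4, 17.7 and 17.1 in KO-SD and 25.6, 28.2 and 29.1 in KO-TGF CPM. For Ebp the genotypes overlapped in SD and in TGF, and only the treatment separated the libraries. Its log2 fold changes of 0.66 ± 0.07 in WT and 0.70 ± 0.07 in KO differed by 0.04 ± 0.10, which did not pass the interaction test (edgeR adjusted p = 0.823).

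Of the regulators, Srebf2 and Insig1 followed the sterol enzymes and Srebf1 hardly did. Srebf2 (chr15:82147269-82205379) had 78.5, 80.8 and 88.3 in WT-SD, 147, 148 and 151 in WT-TGF, 81.8, 88.6 and 91.7 in KO-SD and 232, 240.5 and 253 in KO-TGF CPM. The SD libraries of the genotypes overlapped and the TGF libraries did not, with KO-TGF at the top. Its log2 fold changes were 0.84 ± 0.04 in WT and 1.47 ± 0.04 in KO. Srebf1 (chr11:60199084-60224186) had 64.9, 65.1 and 68.5 in WT-SD, 75.7, 77.5 and 77.3 in WT-TGF, 65.5, 72.7 and 73.8 in KO-SD and 85.0, 84.7 and 84.5 in KO-TGF CPM. Its TGF libraries were above all SD libraries by a small margin, with log2 fold changes of 0.22 ± 0.04 in WT and 0.26 ± 0.04 in KO. With libraries scaled by size alone these were 0.057 and 0.058, and neither passed (edgeR adjusted p = 0.207 and 0.199). The response differed between genotypes by 0.62 ± 0.06 for Srebf2 (edgeR adjusted p = 3.83e-10) and by 0.05 ± 0.06 for Srebf1 (adjusted p = 0.62). Per length, Srebf1 and Srebf2 had similar levels in WT-SD, 11.8 and 11.5 RPKM, and in KO-TGF the levels were 15.04 and 33.6 RPKM. The counts do not separate the transcripts of Srebf1 that encode SREBP-1a and SREBP-1c.

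Insig1, the SREBP-retaining protein whose own gene is a known SREBP target (chr5:28071412-28078662), had 18.7, 17.0 and 18.0 in WT-SD, 48.0, 47.4 and 51.8 in WT-TGF, 17.8, 19.4 and 19.3 in KO-SD and 85.9, 85.5 and 93.8 in KO-TGF CPM. Both SD groups overlapped, and KO-TGF stood 4.70 times above KO-SD where WT-TGF stood 2.73 times above WT-SD. The log2 fold changes were 1.45 ± 0.05 in WT and 2.23 ± 0.05 in KO. Stard4, a cytosolic sterol carrier, rose by 0.93 in WT and 1.44 in KO, from 14.9 to 15.9 CPM in WT-SD to 42.9 to 48.5 CPM in KO-TGF.

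**Figure D3:**
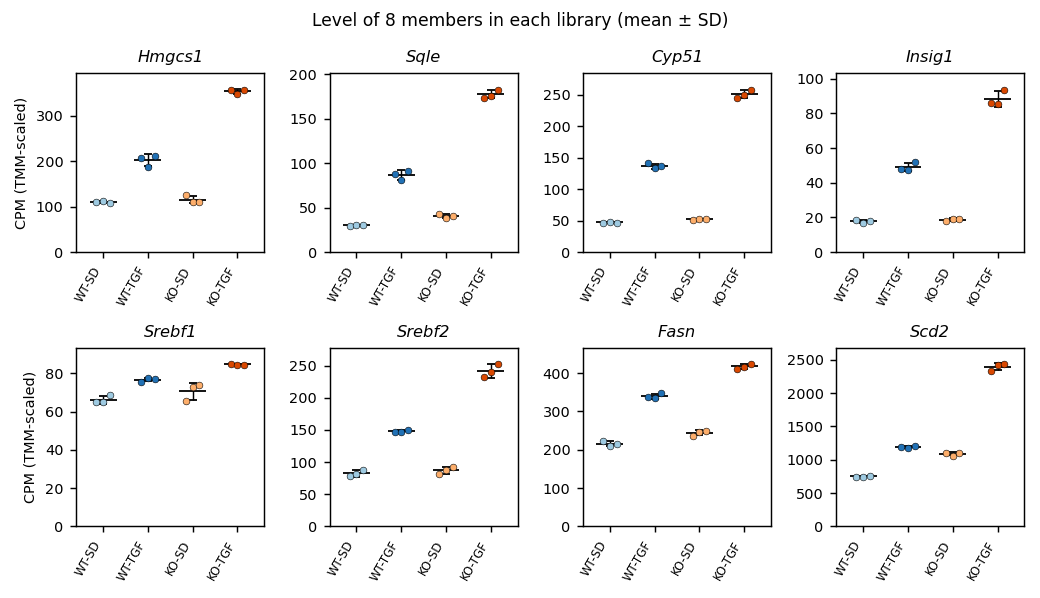
CPM of Hmgcs1, Sqle, Cyp51, Insig1, Srebf1, Srebf2, Fasn and Scd2 in each of the 12 libraries (points), with the mean (line) and SD (bars, n = 3) of each group, on linear axes from 0. KO-TGF libraries are the highest in every panel, and the step from WT-TGF to KO-TGF is smallest for Srebf1.

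In fatty acid synthesis, 7 of 9 genes were higher in WT-TGF and 9 of 9 in KO-TGF, against 36.0% and 34.9% of all genes tested. Scd2, a stearoyl-CoA desaturase that makes oleate (chr19:44293676-44306864), was the most abundant of the 31 genes per length in every group, at 138 RPKM in WT-SD. It had 749, 741 and 763 in WT-SD, 1189, 1174 and 1214 in WT-TGF, 1105, 1062 and 1102 in KO-SD and 2336, 2419 and 2439 in KO-TGF CPM. KO-SD libraries lay just under WT-TGF libraries, and KO-TGF libraries stood clear above all others. The log2 fold changes were 0.67 ± 0.02 in WT and 1.14 ± 0.02 in KO. Its paralog Scd1 (chr19:44394450-44407709), next to it on the chromosome, had 54.0, 57.1 and 52.7 in WT-SD, 95.4, 92.7 and 106 in WT-TGF, 51.9, 50.05 and 56.6 in KO-SD and 186, 197 and 201 in KO-TGF CPM. The SD libraries of Scd1 overlapped between genotypes, and its responses of 0.84 ± 0.05 in WT and 1.88 ± 0.05 in KO differed by 1.04, the largest difference of the 30 genes (edgeR adjusted p = 1.68e-13).

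Fasn, the fatty acid synthase (chr11:120805958-120825166), had 224, 210.1 and 215 in WT-SD, 338, 335 and 347 in WT-TGF, 237, 248 and 249 in KO-SD and 412, 416 and 424 in KO-TGF CPM. The groups stepped up in the order WT-SD, KO-SD, WT-TGF, KO-TGF without overlap. It rose by 0.65 ± 0.03 in WT and 0.77 ± 0.03 in KO. Acly, which supplies cytosolic acetyl-CoA from citrate, rose by 0.77 in WT and 0.996 in KO, and Acaca, the carboxylase that makes malonyl-CoA, by 0.52 in WT and 0.71 in KO, where 30.3% of the 51-base stretches are shared, mostly with Gm5182. The desaturases of polyunsaturated fatty acids moved modestly, Fads1 by 0.28 in WT and 0.73 in KO and Fads2 by 0.29 in WT and 0.62 in KO, at 214 to 471 CPM.

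Me1 and Elovl6 rose in KO and did not pass in WT. Me1, a malic enzyme that yields NADPH, had 65.3, 68.7 and 64.6 in WT-SD, 63.7, 64.8 and 65.5 in WT-TGF, 54.0, 53.2 and 52.4 in KO-SD and 69.0, 64.9 and 68.3 in KO-TGF CPM. Its KO-SD libraries were the lowest and the other 3 groups overlapped. The log2 fold changes were -0.03 ± 0.04 in WT and 0.34 ± 0.04 in KO, and Me1 shares 27.9% of its 51-base stretches, mostly with Gm7049. Elovl6, an elongase of saturated fatty acids, had 22.8, 21.2 and 22.0 in WT-SD, 23.1, 22.6 and 22.4 in WT-TGF, 18.8, 16.9 and 18.9 in KO-SD and 28.1, 27.7 and 28.3 in KO-TGF CPM. KO-SD was again lowest, here with KO-TGF highest, and the log2 fold changes were 0.05 ± 0.06 in WT and 0.62 ± 0.06 in KO.

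KO and WT cells differed little in these genes under SD and widely under TGF-β. In SD, 9 of the 30 genes were higher in KO at FDR <5%, against 30.9% of the 11527 genes, and 4 were lower, against 25.2%, so that the shares were near or below the background. Their median log2 fold change was 0.07, beside 0.02 over all genes. When libraries were scaled by size alone, 5 were higher and 4 lower. In TGF, 27 of the 30 were higher in KO-TGF, against 27.2%, and 0 were lower, against 27.8%, also 0 at an unadjusted p under 0.05 and by DESeq2. The median was 0.58, beside -0.00 over all genes, and 14 of the 30 passed a fold change of 1.5, against 3.92% of all genes. Every KO-TGF library was above every WT-TGF library for 27 of the 30, against 30.6% of genes tested. In SD the same held for 11 of the 30, against 32.4%, and for 4 every KO-SD library was below, against 26.8%.

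The genes higher in KO-SD included Scd2 (0.54 on the log2 scale), Hsd17b7 (0.50), Sqle (0.43) and Acaca (0.36). Fasn, Cyp51, Fads2 and Acly were higher by 0.10 to 0.18. Srebf1 was at 0.09 with overlapping libraries (edgeR adjusted p = 0.0485), and lost the call whenever a library other than WT-SD replicate 3 or KO-SD replicate 1 was left out (0.053 to 0.244), by DESeq2 (0.141), in a fit of the SD groups alone (0.158) and with library size alone (0.711). Cyp51, Acly and Fads2 also lost theirs with library size alone (0.158, 0.499 and 0.307). Me1 (-0.32), Elovl6 (-0.27), Msmo1 (-0.24) and Lss (-0.18) were lower. The call for Lss was lost without WT-SD replicate 2 (edgeR adjusted p = 0.0517) or KO-SD replicate 2 (0.117).

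In TGF the largest differences were in Hsd17b7 (1.16 ± 0.04), Sqle (1.04 ± 0.04), Scd2 (1.01 ± 0.02), Scd1 (0.99 ± 0.04) and Fdps (0.96 ± 0.07). Hmgcs1, Insig1, Fdft1 and Cyp51 were 0.81 to 0.88 higher, and Mvk, Mvd, Srebf2, Lss and Stard4 0.66 to 0.74. Next came Nsdhl (0.58), Msmo1 (0.57), Acaca (0.55), Tm7sf2 (0.54), Acat2 (0.54) and Sc5d (0.50). The fatty acid genes Fads1, Fads2, Acly, Elovl6 and Fasn were 0.30 to 0.47 higher, Dhcr7 0.28 and Srebf1 0.14, of which Srebf1 was at 0.020 with library size alone (edgeR adjusted p = 0.693). Pmvk (0.25), Me1 (0.06) and Ebp (0.04) did not pass, of which Pmvk passed without KO-TGF replicate 1 (edgeR adjusted p = 0.0345) and Me1 without KO-TGF replicate 2 (0.0415).

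**Figure D4:**
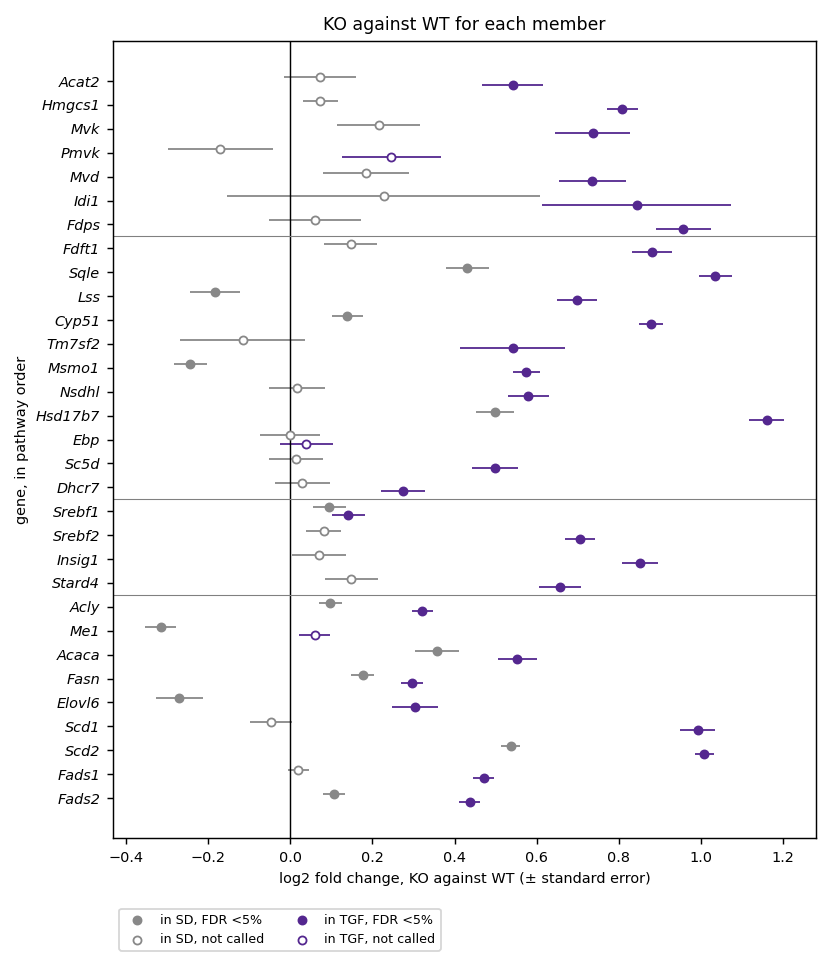
Log2 fold change of KO against WT (horizontal axis) for the 31 genes in SD (grey) and in TGF (purple), with standard errors from the edgeR fits. Filled points passed FDR <5%, and the SD points scatter around 0 from -0.32 to 0.54 while the TGF points run from 0.04 to 1.16.

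The TGF-β responses of the genotypes were compared by the interaction. It was positive, that is larger in KO, for 27 of the 30 genes at FDR <5%, against 8.68% of the genes tested, and negative for 0, against 16.6%, also 0 at an unadjusted p under 0.05 and by DESeq2. The median difference in log2 response was 0.54, beside -0.03 over all genes, and Scd1, Fdps, Lss, Msmo1 and Insig1 had the largest. The 3 that did not pass were Pmvk, Ebp and Srebf1, and Pmvk passed without KO-SD replicate 3 (edgeR adjusted p = 0.0127) or KO-TGF replicate 1 (0.035). The positive calls of Acaca, Dhcr7 and Fasn, with differences of 0.20, 0.25 and 0.12, were close to the threshold. Acaca lost its call without WT-SD replicate 1 or 3, WT-TGF replicate 1 or 2 or KO-SD replicate 1 (adjusted p of 0.0712 to 0.111), Dhcr7 without WT-SD replicate 1 or 3, WT-TGF replicate 2 or KO-SD replicate 2 or 3 (0.0561 to 0.0873), Fasn without WT-SD replicate 1 or WT-TGF replicate 1 or 2 (0.053 to 0.102) and Tm7sf2 without WT-SD replicate 3 (0.0691). Scaling by library size alone also ended the calls of Acaca (adjusted p = 0.122), Dhcr7 (0.0802) and Fasn (0.16). DESeq2 called 25 of the 30 positive, without Acaca (0.0747) and Dhcr7 (0.0623), and edgeR with no filter called 25 of 31, also without Acaca (0.114) and Dhcr7 (0.074). With the limit of CPM above 1 in at least 3 libraries, Acaca was at 0.0508.

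Cells that load cholesterol are known to turn on the oxysterol receptor LXR, whose targets export sterol. Of 10 genes tested on the list of LXR, efflux, storage and oxysterol genes, 7 fell and 2 rose in WT, against 36.4% and 36.0% of all genes tested, and 8 fell and 2 rose in KO, against 39.1% and 34.9%. The cholesterol exporter Abca1 had 429, 440.2 and 426 in WT-SD, 136, 146 and 143 in WT-TGF, 333, 306 and 300.1 in KO-SD and 64.9, 61.7 and 60.4 in KO-TGF CPM. The 4 groups did not overlap and KO-TGF was lowest, opposite in order to Insig1 in TGF. Its log2 fold changes were -1.61 ± 0.03 in WT and -2.33 ± 0.04 in KO, with an interaction of -0.72. Mylip, an LXR target that marks lipoprotein receptors for breakdown, had 55.2, 49.1 and 50.5 in WT-SD, 33.0, 32.5 and 33.2 in WT-TGF, 30.3, 30.5 and 31.6 in KO-SD and 12.8, 11.5 and 10.3 in KO-TGF CPM. Its log2 fold changes were -0.65 ± 0.05 in WT and -1.42 ± 0.07 in KO, a difference of -0.77 which passed the interaction test. Abcg1, another sterol exporter on the list, was under the RPKM limit, at 0.321 to 2.22 CPM, and did not follow Abca1. In the fit of all genes with a count, its responses of 0.41 in WT and 0.47 in KO did not pass. Abcg1 was lower in KO, with log2 fold changes of -2.02 in SD and -1.96 in TGF, which passed. Ch25h and Cyp27a1, which make oxysterols, had at most 2.91 CPM and changed by -0.73 in WT and -2.39 in KO and by -1.04 in WT and -1.59 in KO. Soat1, which stores cholesterol as ester, rose instead by 0.48 in WT and 0.70 in KO, as did the oxysterol-binding protein Osbp by 0.28 in WT and 0.28 in KO. The interaction was negative for 4 of the 10 (Abca1, Mylip, Ch25h and Osbpl1a), against 16.6% of all genes, and positive for 1, Soat1, against 8.68%.

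Of 11 genes for the machinery that cuts SREBPs free and breaks down its partners, 5 rose and 4 fell in WT, near the 36.0% and 36.4% of all genes, and 4 rose and 4 fell in KO, near the 34.9% and 39.1% of all genes. Their median log2 fold changes were 0.07 and -0.01. The escort protein Scap changed by -0.11 in WT and -0.21 in KO and the site-1 protease Mbtps1 by -0.11 in WT and -0.22 in KO. Insig2, the second retaining protein, had 71.7, 71.0 and 71.6 in WT-SD, 58.2, 55.7 and 60.7 in WT-TGF, 59.0, 55.0 and 54.6 in KO-SD and 52.6, 49.7 and 50.9 in KO-TGF CPM. It was highest in WT-SD and lowest in KO-TGF, with log2 fold changes of -0.30 in WT and -0.14 in KO, while Insig1 rose. Fbxw7, which tags nuclear SREBPs for degradation, rose by 0.81 in WT and 0.82 in KO.

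On the list of lipoprotein and lipid uptake genes, 4 of 6 tested rose and 2 fell in each genotype, against 36.0% and 36.4% of all genes in WT and 34.9% and 39.1% in KO. Lpl, Cd36 and Fabp4, also listed, were under the RPKM limit and went down in the fit of all genes with a count. Lpl had log2 fold changes of -1.68 in WT and -2.99 in KO, from at most 3.17 CPM in WT-SD. Cd36 had -1.40 in WT, from at most 1.09 CPM, and 0 counts in every KO library. Fabp4 had at most 6 counts, with -2.12 in WT, which did not pass, and -5.13 in KO. Lrp8, a lipoprotein receptor, rose by 1.27 in WT and 1.28 in KO, the same in size. The HDL receptor Scarb1 had 18.7, 18.4 and 22.3 in WT-SD, 29.1, 28.8 and 26.5 in WT-TGF, 27.6, 27.8 and 27.9 in KO-SD and 51.8, 52.0 and 53.4 in KO-TGF CPM. WT-TGF and KO-SD overlapped and KO-TGF stood apart at the top, with log2 fold changes of 0.51 in WT and 0.92 in KO and an interaction of 0.41 which passed. The VLDL receptor Vldlr fell, with log2 fold changes of -0.44 in WT and -0.17 in KO, and the fatty acid carrier Fabp5 rose by 1.23 in WT and 0.80 in KO from at most 2.04 CPM in WT-SD.

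**Figure D5:**
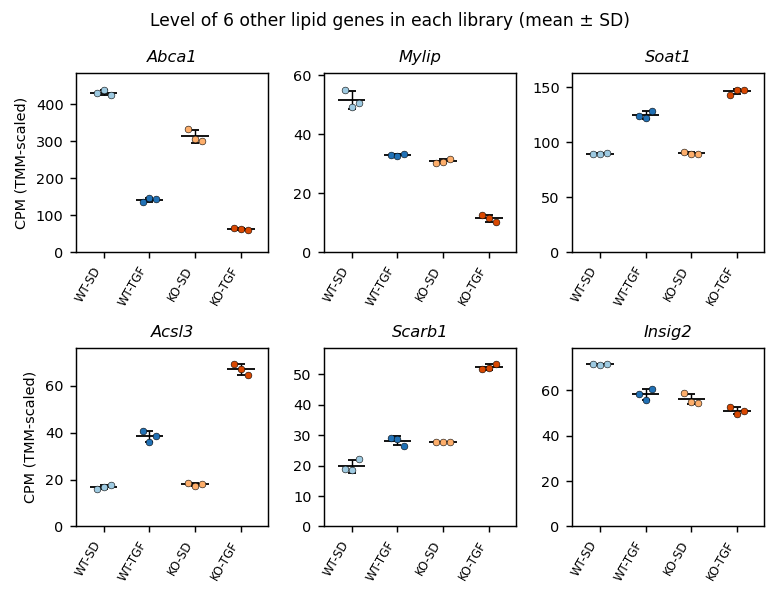
CPM of Abca1, Mylip, Soat1, Acsl3, Scarb1 and Insig2 in each of the 12 libraries (points), with the mean (line) and SD (bars, n = 3) of each group, on linear axes from 0. Abca1 and Mylip are lowest and Soat1, Acsl3 and Scarb1 highest in KO-TGF.

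Other differences between the groups ran beside these. The 8 mesangial markers summed to 4876 to 5037 CPM in WT-SD, 8531 to 8802 in WT-TGF, 7636 to 8117 in KO-SD and 14670 to 14810 in KO-TGF, so this sum, most of it Acta2, Tagln and Cald1, was higher with TGF-β and in KO as the summed lipid genes were. The 10 markers of cycling cells summed to 131 to 152 CPM in WT-SD, 60.9 to 67.9 in WT-TGF, 458 to 464 in KO-SD and 90.6 to 96.5 in KO-TGF. Of them, 9 fell in WT (36.4% of all genes), 10 fell in KO (39.1%), 10 were higher in KO-SD (30.9%) and 6 in KO-TGF (27.2%). The 8 macrophage markers summed to 34.4 to 37.4, 18.4 to 21.8, 8.13 to 9.77 and 2.30 to 2.62 CPM in the same order, with Adgre1, C1qa and C1qb at 0 in all KO libraries. The 6 podocyte markers summed to 455 to 474 CPM in WT and 205 to 227 CPM in KO, with Nphs1 at most 1 count in any library. In the same order of groups, the 6 tubular markers summed to 46.2 to 49.1, 12.8 to 13.6, 18.2 to 20.2 and 6.67 to 7.28 CPM, with Umod at 0 throughout, and the 6 endothelial markers to 32.9 to 33.3, 20.1 to 22.5, 17.2 to 18.4 and 9.25 to 10.9 CPM, nearly all of it Ehd3. The part of these in the lipid gene changes was not tested, and in bulk RNA a change in the share of one kind of cell and a change in RNA per cell cannot be told apart.

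The scale of the counts also moved. When libraries were scaled by size alone and not by TMM, the median log2 fold change of all genes was -0.16 in WT, -0.23 in KO and -0.13 between KO-TGF and WT-TGF, and 2642 genes were called higher and 6055 lower in WT, 2298 and 6715 in KO, 2442 and 4192 between the SD groups, 1642 and 5407 between the TGF groups and 686 and 2647 for the interaction. Relative to the median of all genes, the median of the 30 lipid genes stood 0.69 higher in WT, 1.12 in KO and 0.58 between the TGF groups, which a change of scaling leaves as it is by construction.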

How the data were processed

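RNA was measured in 12 libraries of MMC, 3 in each of 4 groups taken from the labels. The values deposited by the authors are whole-number counts per gene from single-end mRNA reads, aligned to mm10 with TopHat and counted on RefSeq genes on the gene's strand with HTSeq, without normalization. Reads off annotated exons (10.3% to 15.4% of a library), with several alignments (11.2% to 11.7%) or on overlapping genes (0.225% to 0.274%) were left out here. Genes of near-identical sequence lose reads that way, and 6 of the 31 genes share over 20% of their 51-base stretches with another gene's GENCODE vM21 transcripts.

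Following the methods, genes above 1 RPKM (union exon lengths from GENCODE vM21, found for 24708 of 25230 genes) in at least 1 library were kept, 11527 genes. After TMM scaling they were tested by quasi-likelihood in edgeR 4.0.16 under R 4.3.3, in one fit of 12 libraries with one mean per group, and adjusted by Benjamini-Hochberg over all genes kept. Called means FDR <5%. For genes under the limit, values come from a second fit that took in each of the 18565 genes counted at least once. CPM values use TMM-scaled library sizes. Alternatives were library size alone, DESeq2 1.42.0, no filter, a limit of CPM above 1 in 3 or more libraries, a fit per comparison of its own groups, a block for the replicate number and each library left out. Replicates differed beyond counting noise (chi-square per degree of freedom 1.35 to 5.41), so no library was counted as a duplicate. The standard errors come from the edgeR quasi-likelihood tests and so include the spread between the libraries.

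The 31 genes and the other lists were chosen with earlier results of these data known. The text names every one of the 31. From each other pathway list it names called genes among those over the RPKM limit. These had the largest changes in a comparison and at least 1 CPM in the higher group, up to 2 in each direction. Abcg1, Lpl, Cd36, Fabp4 and Acacb, under the RPKM limit, are named as well, and some of them changed by more than the genes over it. Others, such as Abca1 or Mylip under comparisons where they rank lower, and marker genes, were named after their values were seen. Some genes of these lists are not reported here by name.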

Additional observations from a re-analysis of the deposited data

Results flagged for a closer look

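Members of the lipid synthesis genes are listed here because their TGF-β response differed between the genotypes by the interaction test (edgeR, FDR <5%), with the response in KO minus that in WT on the log2 scale. In the mevalonate branch these were Fdps (0.90), Hmgcs1 (0.74), Mvd (0.55), Mvk (0.52) and Acat2 (0.47). From squalene to cholesterol they were Lss (0.88), Msmo1 (0.82), Cyp51 (0.74), Fdft1 (0.73), Hsd17b7 (0.66), Tm7sf2 (0.66), Sqle (0.60), Nsdhl (0.56), Sc5d (0.49) and Dhcr7 (0.25). Of the regulators and carriers they were Insig1 (0.78), Srebf2 (0.62) and Stard4 (0.51), and in fatty acid synthesis Scd1 (1.04), Elovl6 (0.57), Scd2 (0.47), Fads1 (0.45), Me1 (0.38), Fads2 (0.33), Acly (0.22), Acaca (0.20) and Fasn (0.12). The difference was positive in all 27. Every KO-TGF library stood above every KO-SD library for each of them, but this held for all 30 lipid genes tested and for 35.1% of all genes tested. Groups of 3 libraries were not examined for outlying samples.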

How the results depend on the processing

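The counts of lipid genes called were within 1.5 times their main values under the alternatives, with 3 exceptions. With library size alone in place of TMM, 1 gene (Me1, -0.19) was lower in WT-TGF, against 0, and 5 were higher in KO-SD, against 9. With no filter on low counts, 14 were higher in KO-SD. When one library was left out, the number higher was 26 to 27 in WT with TGF-β, 30 in KO, 8 to 12 in KO-SD against WT-SD, 27 to 28 in KO-TGF against WT-TGF and 24 to 28 for the interaction, and the number lower was 0 except in SD, where it was 3 to 5. The signs of some small values turned. With library size alone these were Pmvk (-0.044) and Elovl6 (-0.11) in WT with TGF-β, the median of the 30 genes in SD (-0.0034, from 0.072), Ebp (-0.082) and Me1 (-0.062) between the TGF groups and the interaction of Ebp (-0.0062). Leaving out one library gave -0.0078 (without WT-TGF replicate 2) to 0.11 for Ebp between the TGF groups, -0.012 (without WT-SD replicate 3, and below 0 without WT-TGF replicate 2) to 0.13 for the interaction of Ebp and -0.0055 (without KO-SD replicate 1) to 0.086 for that of Srebf1. Of the 18 genes not called in SD, 10 changed sign under an alternative. The cause was not tested. The main fit did not pair libraries by replicate number. Deviations of same-numbered libraries correlated by -0.01 to 0.07, and such small values cannot decide whether the libraries were paired. With the replicate number as a block 27 genes were higher in WT, 30 in KO, 12 in SD (9 without the block), 27 in TGF and 27 for the interaction. Idi1 and Tm7sf2 had the fewest counts of the 31 genes.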

Other observations

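On the list of elongation, activation and glycerolipid genes, 7 of 19 tested rose and 8 fell in WT, near the 36.0% and 36.4% of all genes, and 10 rose and 8 fell in KO, beside 34.9% and 39.1% of all genes, with medians of -0.01 and 0.15. The acyl-CoA synthetases split: Acsl3, known from lipid droplets, had 16.1, 16.8 and 17.7 in WT-SD, 40.8, 36.1 and 38.8 in WT-TGF, 18.7, 17.1 and 17.9 in KO-SD and 69.5, 67.2 and 64.5 in KO-TGF CPM and rose by 1.19 ± 0.06 in WT and 1.90 ± 0.05 in KO, with an interaction of 0.71, while Acsl1 had 64.0, 67.6 and 64.3 in WT-SD, 36.9, 39.9 and 36.3 in WT-TGF, 34.1, 34.1 and 33.0 in KO-SD and 12.4, 13.2 and 11.2 in KO-TGF CPM and fell, with log2 fold changes of -0.79 ± 0.04 in WT and -1.46 ± 0.06 in KO, with an interaction of -0.67. Neither gene had overlapping TGF libraries between the genotypes. The ketoacyl reductase of elongation, Hsd17b12, rose by 0.95 in WT and 1.02 in KO, and the glycerolipid enzyme Dgat2 fell, with log2 fold changes of -1.24 in WT and -0.76 in KO, at no more than 3.05 CPM. Acacb, also listed, was under the RPKM limit, at no more than 2.21 CPM. In the fit of all genes with a count it had log2 fold changes of -1.48 in WT and -1.21 in KO, which passed.

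Of 14 fatty acid oxidation genes tested, 5 rose and 6 fell in WT and 7 rose and 6 fell in KO, beside the same shares of all genes. Cpt1a, the gate of mitochondrial fatty acid entry, had 103, 95.1 and 94.8 in WT-SD, 69.5, 72.6 and 71.9 in WT-TGF, 135, 141 and 134 in KO-SD and 61.5, 58.9 and 57.4 in KO-TGF CPM. It was highest in KO-SD and lowest in KO-TGF, fell with log2 fold changes of -0.45 ± 0.04 in WT and -1.20 ± 0.04 in KO and had an interaction of -0.75. The oxidation enzymes Acadm and Acaa2 fell by like amounts in both genotypes, with log2 fold changes of -0.76 in WT and -0.74 in KO and of -0.83 in WT and -0.84 in KO, and Pdk4, which blocks pyruvate oxidation, rose by 0.28 in WT and 0.68 in KO. Among genes that draw on farnesyl diphosphate for isoprenoids, of 9 tested, 4 rose and 1 fell in WT (36.0% and 36.4% of all genes) and 5 rose and 1 fell in KO (34.9% and 39.1%), and the extremes were Fntb in WT (0.39) and Nus1 in KO (0.36) at the upper end and Fnta at the lower, at -0.21 in WT and -0.27 in KO.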
